A study of Rattus norvegicus with 14 samples.

Results

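The genes described here make fatty acids from acetyl units or control that process: Acss2, Acly, Me1, Acaca, Fasn, Thrsp, Elovl5, Elovl6, Scd and Srebf1. They are 10 of the 14217 genes that the array's annotation names, and they were taken by symbol. The list was chosen with earlier results of these data known, so counts over it are not independent evidence. Together they have 18 of the 31042 probe sets tested, where a probe set is a group of short probes that together report 1 transcript. Of the 10 genes, 7 had several probe sets, and each gene was represented by the probe set with its highest mean over all 14 arrays.

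Thoracic aortas of Sprague-Dawley rats were compared between animals with chronic renal failure induced by adenine (A-CRF, 8 arrays) and Control animals (6 arrays). Adenine is a purine whose oxidised product crystallises in the kidney and injures it, and the study asked how renal failure alters the aorta. The labels give no genetic alteration for either group, and the labels used here state neither the age of the rats nor the adenine dose or the duration of treatment. RNA came from whole aortic tissue, so smooth muscle, endothelium, adventitia and any attached fat were measured together, and fewer cells of a type and less RNA per cell cannot be told apart.

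Fatty acid synthesis takes place in the cytosol. Citrate lyase (Acly) and acetyl-CoA synthetase (Acss2) provide acetyl-CoA, acetyl-CoA carboxylase (Acaca) turns it into malonyl-CoA, and fatty acid synthase (Fasn) joins these units into palmitate with NADPH that malic enzyme (Me1) helps to supply. Elongases and desaturases then lengthen the chain and add double bonds, and the transcription factor SREBP-1, the product of Srebf1, switches many of these genes on; in mammals the pathway is most active in fat and liver, and many arteries, the thoracic aorta of the rat included, lie in a bed of perivascular fat.

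Promoter sequences are shown for 4 of the genes because the members lay lower in A-CRF as a group and because many promoters of this pathway are known to combine binding sites for SREBP with CCAAT and GC boxes. The RefSeq table for the rat build GRCr8 held windows for 7 of the 10 genes, each from 250 bases before to 50 bases after an annotated transcription start. Acaca, Fasn and Elovl6 were not matched. All 4 windows shown hold a CCAAT box, while the windows of Me1 and Scd, which are not shown, hold none. The windows below lie at chr3:164464453-164464752 on the plus strand (Acss2), chr10:85963582-85963881 on the minus strand (Acly), chr1:161138915-161139214 on the minus strand (Thrsp) and chr10:45518961-45519260 on the minus strand (Srebf1, 1 of 2 starts). They read 5′ to 3′ along the gene, and capitals mark the CCAAT box, CCAAT or its complement ATTGG.
Acss2: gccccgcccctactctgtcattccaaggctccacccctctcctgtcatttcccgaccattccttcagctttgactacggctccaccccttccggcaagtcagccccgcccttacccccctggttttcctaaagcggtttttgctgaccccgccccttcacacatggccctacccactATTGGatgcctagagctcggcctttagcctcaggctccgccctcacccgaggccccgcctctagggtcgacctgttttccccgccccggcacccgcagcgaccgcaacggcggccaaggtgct
Acly: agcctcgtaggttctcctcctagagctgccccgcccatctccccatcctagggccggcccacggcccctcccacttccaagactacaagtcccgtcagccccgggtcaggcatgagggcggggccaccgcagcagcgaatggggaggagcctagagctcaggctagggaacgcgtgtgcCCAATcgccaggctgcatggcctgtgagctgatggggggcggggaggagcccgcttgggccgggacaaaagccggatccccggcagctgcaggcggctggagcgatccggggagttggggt
Thrsp: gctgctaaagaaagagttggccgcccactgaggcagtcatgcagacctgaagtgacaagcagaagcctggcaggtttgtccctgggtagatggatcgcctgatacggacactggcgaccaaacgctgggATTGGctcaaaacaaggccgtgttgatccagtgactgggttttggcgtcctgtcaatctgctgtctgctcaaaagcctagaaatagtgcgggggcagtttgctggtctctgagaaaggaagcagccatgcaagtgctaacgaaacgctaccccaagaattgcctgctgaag
Srebf1: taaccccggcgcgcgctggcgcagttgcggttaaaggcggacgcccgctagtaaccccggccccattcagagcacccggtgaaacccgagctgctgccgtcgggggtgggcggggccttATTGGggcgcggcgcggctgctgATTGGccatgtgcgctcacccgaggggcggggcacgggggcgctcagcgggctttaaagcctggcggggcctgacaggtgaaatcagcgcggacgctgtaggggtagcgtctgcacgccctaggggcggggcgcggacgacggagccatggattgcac

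The CCAAT letters began 73 bases before the start in Acss2, 71 before it in Acly, 121 before it in Thrsp, and 131 and 108 before it in Srebf1. A CCAAT box was found in 5 of the 7 matched genes (these 4 and Elovl5). By window this was 6 of 8, against 37.5% of all 33469 promoter windows. The GC box, GGGCGG on either strand, was found in 5 of 7 genes (Acss2, Acly, Me1, Thrsp and Srebf1). By window this was 6 of 8, against 33.1% of all windows. The E-box CACGTG was found in Elovl5 alone, 1 of 8 windows, against 6.42% of all windows. In the form TCACNCCAC on either strand, the sterol response element was found in 0 of 8 windows, against 1.12%. The window of Scd held none of the motifs. The counts are matches of letters in the windows and say nothing of binding.

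Values are in log2 units, in which a step of 1 is a doubling. The log base was inferred from the range of the table, 4.82 to 12.64, so fold changes hold only if the base is as inferred. Any pair of arrays correlated at 0.970 to 0.997 over the whole table. The GAPDH control probe sets at the 3' and 5' ends of the transcript differed by 1.90 log2 units on A-CRF 1, 1.63 on A-CRF 4 and 1.58 on Control 1, and by 0.37 to 0.55 on the other arrays; a larger difference is a sign of shorter transcripts. Smooth muscle markers averaged 9.66 to 10.12 in A-CRF and 9.90 to 10.58 in Control, and 1 of 7, Myh11, was lower in A-CRF (log2 fold change -0.29, adjusted p = 0.043, limma), against 0.789% of all probe sets called lower; that call was lost without A-CRF 1 (adjusted p = 0.052). All 6 macrophage markers passed and were higher in A-CRF, by a median of 0.43, against 1.26% of all probe sets called higher; their part in the results below was not tested. Whether the arrays of a group come from separate animals is not stated in the labels, so the p-values speak of the spread among these arrays.

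A-CRF 1 stood apart in the genes of this pathway. It was the highest of the 8 A-CRF arrays for 9 of the 10 genes, Srebf1 being the exception, and it lay above every Control array for 6 of them (Acly, Acaca, Fasn, Thrsp, Elovl5 and Elovl6). A-CRF 4, which also had a large GAPDH difference, lay below every Control array in all 10 genes, with Fasn at 7.36 against 10.11 on A-CRF 1. Control 1, the remaining array with a large difference, had the highest Fasn of the Control arrays, 9.67. It also had their highest mean over the 10 genes, 8.57. How often these arrays are highest or lowest over all probe sets was not counted. Their place is therefore not shown to be particular to these genes. The part of RNA quality in these levels was not tested. The results for the 10 genes, and the marker and pathway counts that bear on them, are therefore given with all 14 arrays and again without A-CRF 1. That array was singled out after its values in these genes had been seen, so the p-values and counts without it are not independent evidence.

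All 10 genes had a lower mean in A-CRF than in Control. The median log2 fold change of the 10 was -0.69, against -0.0020 over all probe sets. With all 14 arrays 1 of the 10, Acss2, passed the test (limma, Benjamini-Hochberg adjusted p under 0.05), against 0.789% of all probe sets called lower in A-CRF and 2.05% called in either direction. At an unadjusted p under 0.05, 10 of 10 were lower, against 7.23% of all probe sets. Without A-CRF 1, 8 of 10 passed, against 1.30% of all probe sets, and the median was -0.83. The 2 that did not pass were Elovl5 and Srebf1.

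**Figure D1:**
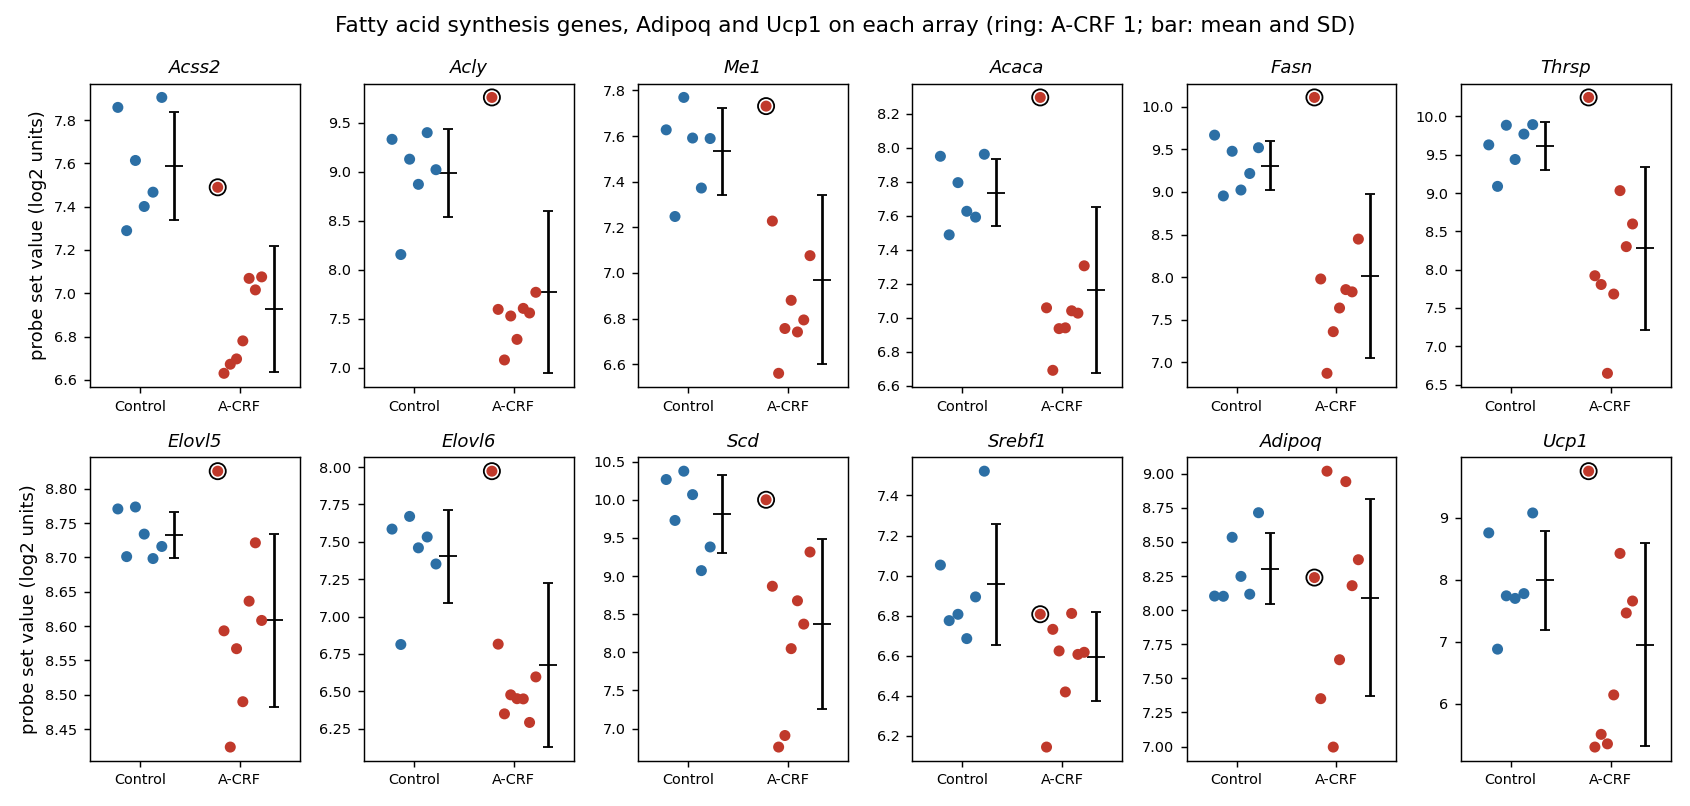
Probe set values in log2 units (y axis) of the 10 fatty acid synthesis genes, Adipoq and Ucp1 on each Control array (blue, 6) and A-CRF array (red, 8); bars give the mean and SD of each group, and a ring marks A-CRF 1. In Acly, Fasn and Thrsp the 7 other A-CRF arrays lie below all Control arrays while A-CRF 1 lies above them, and the groups overlap in Adipoq.

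The enzymes that supply acetyl-CoA both had lower means in renal failure. Acss2 (probe set 1375944_at) uses acetate as its substrate. It ranged from 7.29 to 7.90 in Control with a median of 7.54, and from 6.63 to 7.49 in A-CRF with a median of 6.90. The groups overlapped on A-CRF 1 only, and the next highest A-CRF array, at 7.08, was below the lowest Control array, Control 2. The mean was 6.93 ± 0.29 (SD, n = 8) in A-CRF and 7.59 ± 0.25 (SD, n = 6) in Control, a log2 fold change of -0.66 ± 0.14 (SE; adjusted p = 0.026, limma) or 1.58-fold lower. Without A-CRF 1 the log2 fold change was -0.74 ± 0.11 (SE; adjusted p = 0.0056). The call with all arrays did not outlast every removal: it was lost without A-CRF 3 or 5, and without Control 1, 3, 5 or 6, where the adjusted p rose to at most 0.062.

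Acly, which splits citrate into acetyl-CoA and oxaloacetate (1367854_at), ranged from 8.15 to 9.40 in Control with a median of 9.07, and from 7.08 to 9.76 in A-CRF with a median of 7.58. A-CRF 1 gave the 9.76, above all Control arrays, and the next A-CRF array was at 7.77, below all of them. The means, 7.77 ± 0.83 (SD, n = 8) in A-CRF and 8.98 ± 0.45 (SD, n = 6) in Control, differed by -1.21 ± 0.35 (SE; adjusted p = 0.093, limma), which did not pass. Without A-CRF 1 Acly was 2.82-fold lower (log2 fold change -1.50 ± 0.18, SE; adjusted p = 0.0018).

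Me1, the malic enzyme of the cytosol that yields NADPH (1370870_at), ranged from 7.25 to 7.77 in Control with a median of 7.59, and from 6.56 to 7.73 in A-CRF with a median of 6.84. A-CRF 1 lay inside the Control range, and A-CRF 2, at 7.23, lay just under the lowest Control array. The groups differed by -0.56 ± 0.15 (SE; adjusted p = 0.078, limma) with all arrays and -0.67 ± 0.11 (SE; adjusted p = 0.0064) without A-CRF 1. The other probe set of Me1 (1370067_at) passed with all 14 arrays, at -0.51 ± 0.11 (SE; adjusted p = 0.031).

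Acaca, whose product malonyl-CoA is the committed building block of the chain (1370893_at), ranged from 7.49 to 7.96 in Control with a median of 7.71, and from 6.69 to 8.29 in A-CRF with a median of 7.03. Apart from A-CRF 1 the highest A-CRF array was at 7.30, so the other 7 did not overlap with Control. The difference was -0.57 ± 0.20 (SE; adjusted p = 0.165, limma), and -0.74 ± 0.10 (SE; adjusted p = 0.0026) without A-CRF 1. Another probe set of Acaca, near the bottom of the scale, showed a log2 fold change of -0.04 (adjusted p = 0.73).

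Fasn, the synthase itself (1367708_a_at), had one of the widest spreads in A-CRF. It ranged from 8.95 to 9.67 in Control with a median of 9.35, and from 6.87 to 10.11 in A-CRF with a median of 7.84. A-CRF 3 was lowest and A-CRF 1 highest; the second highest A-CRF array, A-CRF 8 at 8.45, was below every Control array. The means, 8.01 ± 0.96 (SD, n = 8) in A-CRF and 9.31 ± 0.29 (SD, n = 6) in Control, gave a log2 fold change of -1.30 ± 0.38 (SE; adjusted p = 0.099, limma). Without A-CRF 1 Fasn was 3.03-fold lower (-1.60 ± 0.21, SE; adjusted p = 0.0026), and the other Fasn probe set changed by -1.67 ± 0.17 (SE; adjusted p = 0.0011).

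Thrsp, also called Spot 14, is a small nuclear and cytosolic protein that responds to thyroid hormone and carbohydrate and promotes lipogenesis. Its leading probe set (1371400_at) ranged from 9.09 to 9.89 in Control with a median of 9.70, and from 6.65 on A-CRF 4 to 10.25 on A-CRF 1 with a median of 8.11. The other A-CRF arrays reached 9.03 on A-CRF 6, just under the lowest Control array. The log2 fold change was -1.34 ± 0.42 (SE; adjusted p = 0.12, limma) with all arrays and -1.62 ± 0.31 (SE; adjusted p = 0.015) without A-CRF 1. Of the other probe sets of Thrsp, 1387852_at passed without A-CRF 1 (-1.29, adjusted p = 0.023) and 1370150_a_at did not (-1.48, adjusted p = 0.053).

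The elongases come next in the pathway. Elovl6, which extends palmitate to stearate (1388108_at), ranged from 6.81 to 7.67 in Control with a median of 7.50, and from 6.29 to 7.97 in A-CRF with a median of 6.46. Control 2 was the lowest Control array by a wide gap and fell level with A-CRF 2, at 6.82, so the groups overlapped even without A-CRF 1. The log2 fold change was -0.73 ± 0.23 (SE; adjusted p = 0.13, limma), and without A-CRF 1 it was -0.91 ± 0.13 (SE; adjusted p = 0.0032), 1.88-fold lower.

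Elovl5, which acts mainly on polyunsaturated chains (1388348_at), had the smallest change of the 10. It ranged from 8.70 to 8.77 in Control with a median of 8.72, and from 8.42 to 8.83 in A-CRF with a median of 8.60. The log2 fold change of -0.12 ± 0.05 (SE; adjusted p = 0.25, limma) did not pass, nor did the value without A-CRF 1, -0.16 ± 0.04 (SE; adjusted p = 0.054). A second, dim probe set had a log2 fold change of 0.02.

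Scd, the stearoyl-CoA desaturase that makes oleate (1370355_at), had the largest log2 fold change of the 10 and also the largest standard error. It ranged from 9.07 to 10.37 in Control with a median of 9.90, and from 6.76 to 9.999 in A-CRF with a median of 8.52. A-CRF 1 and A-CRF 8, at 9.31, lay within the Control range, and A-CRF 3 and A-CRF 4, at 6.76 and 6.91, lay far below the rest. The groups differed by -1.45 ± 0.46 (SE; adjusted p = 0.13, limma), and without A-CRF 1 it was -1.68 ± 0.41 (SE; adjusted p = 0.042), 3.20-fold lower.

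Srebf1, the transcription factor gene (1388426_at), was the member that A-CRF 1 did not lead. It ranged from 6.68 to 7.52 in Control with a median of 6.85, and from 6.14 to 6.81 in A-CRF with a median of 6.62. The groups overlapped and Control 6 was the highest array by a wide gap. The log2 fold change was -0.36 ± 0.13 (SE; adjusted p = 0.185, limma), and -0.39 ± 0.13 (SE; adjusted p = 0.147) without A-CRF 1. A dim second probe set of Srebf1 (1371104_at) lay lower on every A-CRF array than on any Control array, by -0.11 ± 0.03 (SE), and did not pass (adjusted p = 0.090, limma).

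With all 14 arrays, 0 of the 10 leading probe sets had all A-CRF arrays below all Control arrays, against 0.438% of all probe sets. Without A-CRF 1 this held for 6 of 10 (Acss2, Acly, Me1, Acaca, Fasn and Thrsp), against 0.792%. That array was left out for its values in these genes, so the shares are not like for like. Within the groups the arrays often ranked alike from gene to gene: A-CRF 3 was the lowest A-CRF array for 6 of the 10 genes and Control 2 the lowest Control array for 7. The share of all probe sets with the same lowest arrays was not counted. Averaged over the 10 genes, A-CRF 3 stood at 6.99 and A-CRF 1 at 8.72, above the highest Control array, Control 1 at 8.57.

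**Figure D2:**
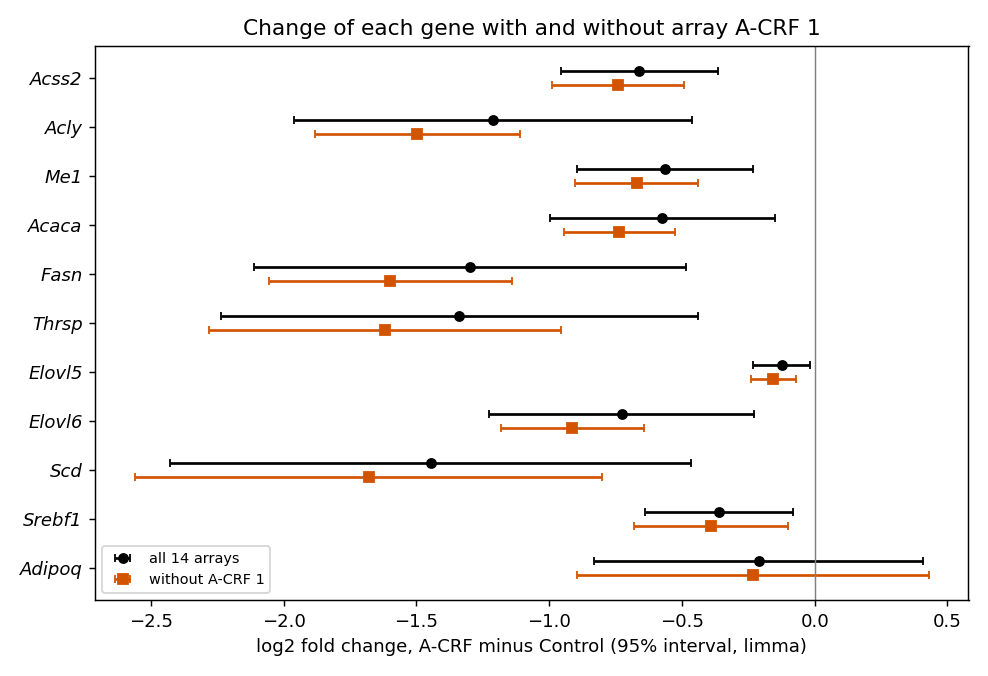
Log2 fold change, A-CRF minus Control (x axis), with its 95% interval from limma, for the 10 genes and Adipoq, with all 14 arrays (black circles) and without A-CRF 1 (orange squares). The intervals of Acly and Fasn narrow and move left without that array, from -1.21 to -1.50 and from -1.30 to -1.60, and both intervals of Adipoq span 0.

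Adipoq encodes adiponectin, a hormone made by adipocytes, and serves here as a measure of fat in the sample. It ranged from 8.10 to 8.71 in Control with a median of 8.18, and from 6.996 on A-CRF 4 to 9.02 on A-CRF 3 in A-CRF with a median of 8.21. The A-CRF arrays spread to both sides of the Control range, with 3 below all Control arrays and 2 above all of them. The means, 8.09 ± 0.72 (SD, n = 8) in A-CRF and 8.30 ± 0.26 (SD, n = 6) in Control, differed by -0.21 ± 0.29 (SE, adjusted p = 0.85 by limma). The 95% interval of that difference ran from -0.83 to 0.41. Without A-CRF 1 it was -0.23 ± 0.31 (SE; adjusted p = 0.83).

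The array with the most Adipoq was not the array with the most of these enzymes. A-CRF 3 had the highest Adipoq of all arrays, 9.02, with the lowest Fasn, 6.87, and Acly, 7.08. A-CRF 1 had a middling Adipoq of 8.24 with the highest Fasn and Acly. Within groups, the slope of each gene on Adipoq was fitted across all probe sets: 0 of 10 genes passed, against 0.142% of all probe sets that rose with Adipoq. At an unadjusted p under 0.05, 2 of 10 had a slope, both rising, against 3881 of 31041 probe sets in either direction. They were Thrsp, by 0.79 ± 0.34 (SE; adjusted p = 0.38, limma) per log2 unit of Adipoq, and Srebf1, by 0.24 ± 0.11 (SE; adjusted p = 0.38). The slopes of the other 8 lay between -0.06 for Me1 and 0.18 for Acss2. These slopes rest on single arrays. Positive slopes numbered 8 of 10 with all arrays, against 41.6% of all probe sets. They numbered 5 without A-CRF 1, 10 without A-CRF 3 and 3 without A-CRF 4. Fasn had a slope of 0.50 ± 0.36 (SE) without A-CRF 3 and -0.20 ± 0.45 (SE) without A-CRF 4, and Scd of 0.78 ± 0.38 (SE) and -0.45 ± 0.47 (SE). Thrsp had 0.72 ± 0.20 (SE) without A-CRF 1, 1.22 ± 0.32 (SE) without A-CRF 3 and 0.43 ± 0.39 (SE) without A-CRF 4, and 0 of 10 passed in each of these 3 fits (limma), with an unadjusted p under 0.05 for 2, 3 and 1 genes. The shares of all probe sets at that p, and with a positive slope, were not counted in these 3 fits.

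With Adipoq as a covariate the changes between groups moved little. The groups differed in Adipoq by only -0.21, which leaves such an adjustment little room to move them. Thrsp and Srebf1, which had the steepest slopes, went from -1.34 to -1.17 and from -0.36 to -0.31. The part of fat content in the differences was not tested. Fasn changed by -1.28 ± 0.40 (SE; adjusted p = 0.13, limma), Acly by -1.20 ± 0.37 (SE; adjusted p = 0.12) and Acss2 by -0.62 ± 0.13 (SE; adjusted p = 0.034), and the median of the 10 genes was -0.68. Acss2 alone passed, against 1.89% of all probe sets called in either direction. With Adipoq as a covariate and without A-CRF 1, 7 of 10 passed, against 1.42% of all probe sets called lower.

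**Figure D3:**
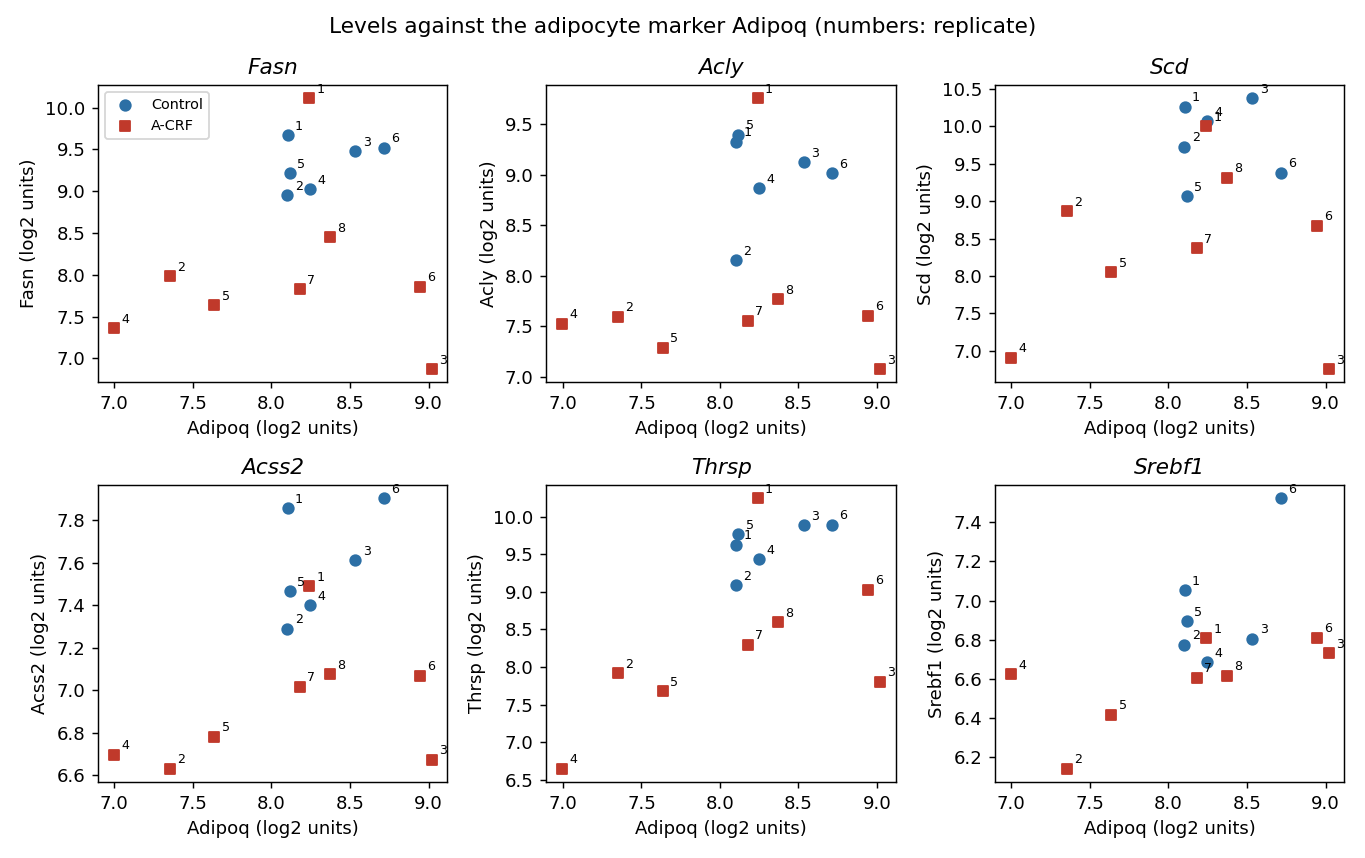
Levels of Fasn, Acly, Scd, Acss2, Thrsp and Srebf1 (y axes, log2 units) against Adipoq (x axes, log2 units) on each Control array (blue circles) and A-CRF array (red squares), numbered by replicate. A-CRF 3, with the highest Adipoq at 9.02, has the lowest Fasn at 6.87, and at Adipoq values within the Control range A-CRF 7 and A-CRF 8 lie below the Control arrays in Fasn and Acly while A-CRF 1 lies above them.

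Markers of fat cells were followed as whole lists. Of 13 measured white adipocyte markers 0 passed in either direction with all arrays, by limma, and 2, Plin4 and Aqp7, had an unadjusted p under 0.05. The directions were mixed: 10 had a lower and 3 a higher mean in A-CRF, and the median was -0.22. The largest change was upward, in Pck1 (0.82, adjusted p = 0.56, limma), and Cfd was also higher (0.38, adjusted p = 0.64). Without A-CRF 1 again 0 passed, and Plin4, Aqp7 and Cidec had an unadjusted p under 0.05. Their mean level ran from 6.78 to 8.0004 in A-CRF and from 7.35 to 8.11 in Control. Of the defining markers, Lep was near the bottom of the scale, at 5.16 ± 0.03 (SD, n = 8) in A-CRF and 5.18 ± 0.04 (SD, n = 6) in Control. Plin1 and Cidec were at 7.26 and 6.83 in A-CRF and at 7.56 and 7.32 in Control.

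Of 8 brown adipocyte markers 0 passed by limma and 0 had an unadjusted p under 0.05 with all arrays. Without A-CRF 1, 0 passed and 3 were lower at an unadjusted p under 0.05: Ucp1 (-1.44, adjusted p = 0.20), Cox8b (-1.08, adjusted p = 0.23) and Cidea (-0.69, adjusted p = 0.25). Their mean level ran from 5.99 to 7.06 in A-CRF and from 6.30 to 7.16 in Control, and the means of 4 of the 8 cleared the table's lowest value by more than 1 log2 unit. Ucp1, the uncoupling protein that defines brown fat, ranged from 6.88 to 9.07 in Control and from 5.31 to 9.75 in A-CRF. Its highest value was on A-CRF 1, as for most of the fatty acid synthesis genes, and its log2 fold change was -1.04 ± 0.68 (SE; adjusted p = 0.56, limma). With a score of the brown markers (the mean of their standardised values) as a covariate, 0 of the 10 genes passed by limma, against 0.287% of all probe sets called lower in that fit, down from 0.789% without the score. At an unadjusted p under 0.05 there were 4, and the share of all probe sets at that p was not counted. In the same fit 10 of 10 stayed lower in A-CRF, and the median was -0.45. With that covariate and without A-CRF 1, 4 passed (Acaca, Acly, Fasn and Elovl6), against 0.512% of all probe sets called lower. The part of brown fat content in the differences between groups was not tested further.

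Other genes of lipid synthesis were taken from lists, which were also chosen with earlier results of these data known. Among 10 measured genes for precursor and NADPH supply 0 passed with all arrays by limma, 3 had an unadjusted p under 0.05, and the median was -0.07. The largest change was in Tkt, transketolase of the pentose phosphate pathway, at 8.67 ± 0.44 (SD, n = 8) in A-CRF and 9.41 ± 0.29 (SD, n = 6) in Control (log2 fold change -0.74 ± 0.19, SE; adjusted p = 0.063, limma). Without A-CRF 1, 3 of the 10 passed, against 1.30% of all probe sets called lower: Tkt (-0.88, adjusted p = 0.0044), Slc25a1, the citrate carrier of mitochondria (-0.41, adjusted p = 0.037), and Taldo1, transaldolase (-0.21, adjusted p = 0.042).

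Of 12 other elongation and desaturation genes 1 passed, Fads2, the delta-6 desaturase of polyunsaturated fatty acids, against 0.789% of all probe sets called lower. It was dim, with a Control mean 1.05 log2 units above the table's lowest value. It ranged from 5.80 to 5.94 in Control and from 5.43 to 5.75 in A-CRF, with no overlap, as held for 0.438% of all probe sets. A-CRF 1 lay inside the A-CRF range, and the log2 fold change was -0.29 ± 0.04 (SE, adjusted p = 0.0062 by limma). Without A-CRF 1 the change was -0.28 ± 0.05 (SE; adjusted p = 0.0065). The next largest changes of this list were upward, in Hacd1 (0.18 ± 0.09, SE; adjusted p = 0.37, limma) and Fads3 (0.15 ± 0.10, SE; adjusted p = 0.59). The median of the 12 was 0.02, and Scd2, a second stearoyl-CoA desaturase, changed by -0.12 ± 0.16 (SE; adjusted p = 0.85).

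Of 18 regulators 1 passed, against 0.789% of all probe sets called lower. Insig1, which holds the SREBP complex in the endoplasmic reticulum and is itself a target of SREBP, ranged from 7.58 to 8.40 in Control and from 7.08 to 7.53 in A-CRF. Its groups did not overlap, A-CRF 1 included, and the log2 fold change was -0.66 ± 0.12 (SE; adjusted p = 0.014, limma), or -0.70 ± 0.12 (SE; adjusted p = 0.0098) without A-CRF 1. Ppargc1b had the next largest change, -0.19 ± 0.08 (SE; adjusted p = 0.28, limma). Mlxipl, which encodes the carbohydrate response factor ChREBP, was dim and changed by -0.09 ± 0.04 (SE; adjusted p = 0.35). Srebf2, the factor of cholesterol synthesis, changed by 0.08 ± 0.10 (SE; adjusted p = 0.83), Nr1h3, the liver X receptor alpha, by -0.08 ± 0.07 (SE; adjusted p = 0.69) and Mid1ip1, a relative of Thrsp, by -0.17 ± 0.06 (SE; adjusted p = 0.18).

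Of 12 genes for the activation of fatty acids and the synthesis of glycerolipids 1 passed with all arrays, against 0.789% of all probe sets called lower. Pnpla3, a lipid-modifying enzyme of lipid droplets, ranged from 5.74 to 6.47 in Control and from 5.21 to 6.14 in A-CRF. A-CRF 1 gave the 6.14 and the next array was at 5.37, and the log2 fold change was -0.79 ± 0.14 (SE, adjusted p = 0.014 by limma). Pnpla3 was dim, with a Control mean 1.38 log2 units above the table's lowest value. Without A-CRF 1, 3 passed, against 1.30% of all probe sets: Pnpla3 (-0.90, adjusted p = 0.0011), Agpat2, an acyltransferase of phosphatidate synthesis (-1.06, adjusted p = 0.015), and Dgat2, which makes triglyceride (-1.30, adjusted p = 0.034). Dgat1, the other enzyme of that last step, changed by -0.18 ± 0.10 (SE; adjusted p = 0.47) with all arrays.

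Fatty acids are also made in mitochondria by a separate set of enzymes, of which 7 were measured. With all arrays 0 passed by limma and 1, Ndufab1, the acyl carrier protein, had an unadjusted p under 0.05 (-0.38 ± 0.11, SE; adjusted p = 0.085); it passed without A-CRF 1 (-0.43, adjusted p = 0.027), against 1.30% of all probe sets called lower. Lias changed by -0.09 ± 0.07 (SE; adjusted p = 0.64, limma) and Mecr by -0.07 ± 0.06 (SE; adjusted p = 0.67). Oxsm, the condensing enzyme of that route, changed by 0.06 ± 0.04 (SE; adjusted p = 0.55), and the median of the 7 was -0.03.

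**Figure D4:**
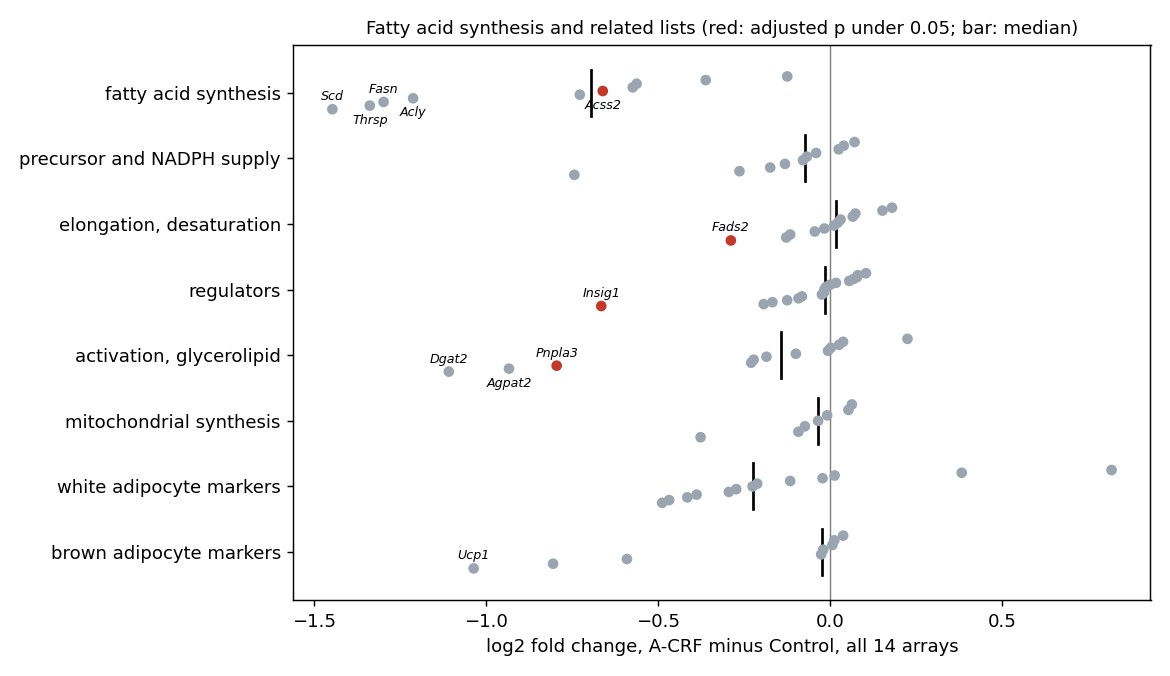
Log2 fold change, A-CRF minus Control (x axis), of every measured gene of 8 lists (y axis) with all 14 arrays; red points passed at an adjusted p under 0.05 and black bars are list medians. The fatty acid synthesis genes have a median of -0.69, while the medians of the other lists lie between -0.22 and 0.02.

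The genes that followed the fatty acid synthesis genes most closely were sought among 9307 genes with a mean above the median, by Pearson's r with the mean of the 10 genes over the 14 arrays after each group's mean had been taken off. The 5 highest were Pdhb, a subunit of pyruvate dehydrogenase (r = 0.96), Acsf2, an acyl-CoA synthetase (0.94), Gpd2, the mitochondrial glycerol-3-phosphate dehydrogenase (0.91), Pygl, glycogen phosphorylase (0.91), and Uqcr10, a subunit of respiratory complex III (0.91). The 3 lowest were Cd63 (-0.89), Uggt2 (-0.88) and Ppib (-0.87). Adipoq had an r of 0.20. A-CRF 1 carries much of these values, and without it r was 0.87 for Pdhb, which was again first, and 0.73 for Uqcr10, in place 116. Between groups, Pdhb had a log2 fold change of -0.35 ± 0.16 (SE; adjusted p = 0.35, limma) and Ppib 0.18 ± 0.06 (SE; adjusted p = 0.16).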

How the data were processed

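Values of 14 arrays were taken from the table of processed values. The values deposited by the authors were used as log2 values, 1 per probe set and array; per the submitters' processing notes they were made with PLIER, no version given. The sources used here do not state the background correction or the normalization, and any offset would shrink changes of dim genes. Per the labels' protocols, 100 ng of RNA was labelled from its poly(A) end, so the probes see the 3' part of transcripts.

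From 31099 probe sets 57 control probe sets were left out. The platform annotation, which can be old, named 1 gene for 20826 probe sets, more than 1 for 436 and no gene for 9780; only the first were used by name. Groups were compared with limma 3.58.1 (lmFit, eBayes; R 4.3.3), two-sided, on the table as deposited with group as the only factor, checked on simulated data. P-values were adjusted by Benjamini-Hochberg over all 31042 probe sets, threshold 0.05. A second fit added Adipoq, whose own row was then left out. The members and lists were chosen with earlier results of these data known. Named were all members, Adipoq, the genes of each pathway list past the threshold and its 3 largest changes, and the 5 most and 3 least alike genes; the others named were chosen after their values were seen. Listed symbols not matched included Elovl4, Elovl7, Scd4, Tecr, Lipt1, Retn, Otop1, Cdh5, Upk3b and Arntl. Alternatives changed the offset, normalization, filter, variance model, array weights, test, probe set rule, covariates and arrays. Arrays have no read depth; their number limits the precision. Promoter motifs were searched as plain letters on both strands.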

Additional observations from a re-analysis of the deposited data

Results flagged for a closer look

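In 74 groups of 6 or 8 arrays (37 named genes in both groups) the highest or the lowest array was compared with its nearest neighbour relative to the range. By Dixon's criterion 17 stood apart. Chance alone gives about 1 in 20 independent groups. These groups share arrays, and the genes most and least like the pathway were picked over them, so that rate does not apply here. Of the 17, 13 were on A-CRF 1. Among the fatty acid synthesis genes, A-CRF 1 stood above the other A-CRF arrays in Acaca (8.29, next 7.30), Acly (9.76, next 7.77) and Elovl6 (7.97, next 6.82), and Control 2 stood below the other Control arrays in Elovl6 (6.81, next 7.35).

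Neighbours of the pathway stood apart on the same array: A-CRF 1 was high in Tkt (9.63), Slc25a1 (7.56), Pnpla3 (6.14) and Mecr (5.82). The genes most like the pathway were high there too, with Pdhb at 8.65, Acsf2 at 6.96, Gpd2 at 7.17, Pygl at 7.23 and Uqcr10 at 10.44, and Cd63 was low there at 9.91; since those 6 were picked for their likeness over these arrays, that array's part in them is no separate observation. On other arrays, Hacd1 was high on A-CRF 2 (8.34), Fads3 was high on A-CRF 4 (7.82) and Uggt2 was low on Control 1 (6.16).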

How the results depend on the processing

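All 10 genes had a lower mean in A-CRF in each of the 15 alternatives, the 14 fits that left out 1 array and the 5 combinations added after the data were seen. How many passed varied. With all 14 arrays 1 gene and 636 probe sets passed by limma. Leaving out 1 array gave 0 to 8 genes and 307 to 979 probe sets, the highest of both without A-CRF 1. Array weights gave 6 genes and 1457 probe sets, the GAPDH difference as a covariate 5 and 1041, and leaving out the 3 arrays with the largest GAPDH difference 7 and 898. Averaging the probe sets of each gene gave 2 of the 10, and 541 of 14217 genes in all; the exact rank-sum test gave 0 (9 at an unadjusted p under 0.05) and 429 probe sets. The brown marker score as a covariate gave 0 genes and 192 probe sets, and the white marker score 1 and 382. Without A-CRF 1 and with a covariate, the counts were 7 genes and 1121 probe sets (Adipoq), 7 and 750 (white score), 4 and 306 (brown score), 9 and 1114 (clock genes), and 9 and 1845 (GAPDH difference). The cause of these shifts was not tested. The sign of the Adipoq change turned with the white marker score, which contains Adipoq, as a covariate (0.094, and 0.15 without A-CRF 1). No gene's slope on Adipoq passed in the fit with all arrays, the 14 fits without 1 array or the 5 other alternatives. No paired analysis was possible because the numbers in the sample titles are not shared between the groups. Signal over background limits the dim second probe sets of Acaca, Elovl5 and Srebf1, and also Fads2 and Pnpla3.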

Other observations

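Insig1 and Fads2 were lower in A-CRF with no overlap between groups, A-CRF 1 included. For Fads2 that array lay inside the range of the other A-CRF arrays, at 5.56. For Insig1 it was the highest A-CRF array, at 7.53, just above A-CRF 3 at 7.50. The same array lay above every Control array in Acly, Acaca, Fasn, Thrsp, Elovl5 and Elovl6.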
